A study of Mus musculus with 6 samples.

Results

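The promoter regions whose captured DNA differed between fibroblast-derived induced neurons at 1 dpi and the fibroblasts they came from are described here. All 3506 regions that the authors listed for this comparison were taken, of 29559 in the promoter lists of the whole series. Of them, 516 regions of 465 genes had more reads at 1 dpi and 2990 regions of 2784 genes had more reads in fibroblasts. With 61 genes in both directions, 3188 genes were listed in all. The direction of a region was set by which of the 2 libraries had more reads.

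Methylated DNA was immunoprecipitated and sequenced (MeDIP-seq) in 6 libraries, all from ICR mice, with 1 library per group. The fibroblasts (MEF) were derived from embryos at E13.5 and were the study's negative control. Induced neurons were generated from MEF, moved to neuronal medium and sampled at 1, 3, 5 and 7 dpi, where dpi is an abbreviation that the labels do not spell out. Hippocampal neurons of pups aged 1 day served as a positive control. The labels give passages 3 to 5 for every library. The labels name neither the agent that drove the conversion, nor the share of cells converted by 1 dpi, nor the number of embryos. RNA was not measured, so the identity of the cells at 1 dpi could not be checked against marker expression. Every value below compares 1 library with 1 library, so there is no replicate check, and intervals and floors cover counting error only.

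MeDIP captures DNA fragments that carry 5-methylcytosine, and the read number of a region rises with both the share of methylated molecules and the number of CpG sites in it. In mammalian somatic cells most CpG-rich promoters stay unmethylated. Promoters of many genes used in germ cells, the imprinted control regions and CpG-rich exons inside gene clusters are among the CpG-rich sequences that somatic cells do methylate. A region in fibroblasts that gains or loses reads after conversion begins can therefore lie at a start site, where methylation is usually associated with silencing, or away from it, where no such rule holds.

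Among the regions higher at 1 dpi were start sites of germ cell genes, and 6 of their promoters are printed to show the CpG sites on which the capture acts. Each line gives the 250 bases before the TSS from the RefSeq promoter table of GRCm38.p6, the build that UCSC calls mm10, in the direction of transcription. Capitals mark CpG dinucleotides. These promoters were chosen after their values were seen.
Sycp2, chr2:178407659-178407908, minus strand: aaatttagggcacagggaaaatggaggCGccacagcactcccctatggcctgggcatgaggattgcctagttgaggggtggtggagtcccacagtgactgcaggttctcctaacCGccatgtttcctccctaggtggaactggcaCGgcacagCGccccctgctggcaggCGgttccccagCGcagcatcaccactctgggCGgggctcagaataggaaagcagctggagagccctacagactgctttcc
Dazl, chr17:50293621-50293870, minus strand: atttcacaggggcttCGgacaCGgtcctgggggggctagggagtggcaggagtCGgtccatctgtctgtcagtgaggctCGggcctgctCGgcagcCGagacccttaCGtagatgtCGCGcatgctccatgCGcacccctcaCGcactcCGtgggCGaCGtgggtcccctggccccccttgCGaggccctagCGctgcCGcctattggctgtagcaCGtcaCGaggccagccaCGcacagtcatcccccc
Tdrd12, chr7:35537745-35537994, minus strand: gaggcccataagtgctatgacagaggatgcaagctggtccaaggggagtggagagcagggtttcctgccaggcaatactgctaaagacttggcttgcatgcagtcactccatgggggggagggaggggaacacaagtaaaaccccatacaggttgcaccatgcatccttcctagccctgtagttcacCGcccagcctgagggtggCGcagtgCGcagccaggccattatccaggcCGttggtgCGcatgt
Brdt, chr5:107330944-107331193, plus strand: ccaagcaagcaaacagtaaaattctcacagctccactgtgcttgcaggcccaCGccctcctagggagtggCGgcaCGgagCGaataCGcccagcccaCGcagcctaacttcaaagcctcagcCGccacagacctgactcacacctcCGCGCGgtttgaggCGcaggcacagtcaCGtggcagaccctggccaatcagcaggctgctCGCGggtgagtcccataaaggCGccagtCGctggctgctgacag
Hormad1, chr3:95559427-95559676, plus strand: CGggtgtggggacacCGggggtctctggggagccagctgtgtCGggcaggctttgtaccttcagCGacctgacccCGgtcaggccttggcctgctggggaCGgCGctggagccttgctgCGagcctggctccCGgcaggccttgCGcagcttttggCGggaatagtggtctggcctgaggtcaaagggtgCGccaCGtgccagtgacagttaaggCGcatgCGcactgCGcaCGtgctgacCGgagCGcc
Piwil1, chr5:128735996-128736245, plus strand: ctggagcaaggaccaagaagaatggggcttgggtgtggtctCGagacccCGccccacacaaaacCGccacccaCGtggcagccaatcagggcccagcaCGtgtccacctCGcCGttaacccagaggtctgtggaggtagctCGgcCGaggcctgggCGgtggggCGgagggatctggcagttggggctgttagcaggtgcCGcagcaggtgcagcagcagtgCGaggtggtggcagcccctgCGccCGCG
The listed region covered 242 of the 250 bases in Sycp2, 240 in Dazl, 236 in Tdrd12, 237 in Brdt, 174 in Hormad1 and all 250 in Piwil1. The sequences held 20 CpG sites in Dazl, 19 in Hormad1, 16 in Brdt, 16 in Piwil1, 7 in Sycp2 and 5 in Tdrd12. These 6 promoters thus ranged from CpG-rich to CpG-poor. A palindromic motif, CACGTG, the E-box letters bound by basic helix-loop-helix factors, was found once in Brdt and 2 times each in Hormad1 and Piwil1. It was in none of the other 3. The same 250-base windows of all 27025 genes in the table held CACGTG in 5.93% of cases. Of the 75 genes of the meiotic and piRNA lists described below, 62 had a promoter in the table, and 16 of the 62 (25.8%) held it. TCCCGC on either strand, letters of the E2F binding site, was in 22 of the 62 (35.5%) and in 16.7% of all genes, and among the 6 printed promoters in Hormad1. The motifs do not overlap each other. Both motifs contain a CpG, so their shares also depend on CpG content, which was not compared between these sets. A match is a description of letters and shows no binding.

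For comparison, 2 promoters whose listed region had fewer reads at 1 dpi are printed in the same way.
Mobp, chr9:120149492-120149741, plus strand: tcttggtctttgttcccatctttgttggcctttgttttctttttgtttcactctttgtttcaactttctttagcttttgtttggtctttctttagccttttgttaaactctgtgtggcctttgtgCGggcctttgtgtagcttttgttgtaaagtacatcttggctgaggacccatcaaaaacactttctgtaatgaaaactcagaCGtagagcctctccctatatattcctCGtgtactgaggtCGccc
Nars2, chr7:96951277-96951526, plus strand: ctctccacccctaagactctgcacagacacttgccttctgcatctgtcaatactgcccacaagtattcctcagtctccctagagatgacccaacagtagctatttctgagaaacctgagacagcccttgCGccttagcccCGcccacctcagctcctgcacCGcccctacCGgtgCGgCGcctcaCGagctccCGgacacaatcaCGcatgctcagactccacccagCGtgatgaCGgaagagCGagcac
In Mobp, a myelin gene, the region covered 221 of the 250 bases and held 3 reads at 1 dpi against 24 in MEF. In Nars2, a mitochondrial asparaginyl-tRNA synthetase gene, it covered 244 bases and held 1 read against 24. The windows held 4 and 12 CpG sites, and neither motif was found in them. A comparison of CpG content over all listed genes was void, since only 2183 of the 3188 genes (68.5%) had a promoter in the table within 50 bp of the TSS in the files.

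Most listed regions were shallow in both directions. The library with more reads had a median of 14 reads (range 11 to 930) in the regions higher at 1 dpi and 13 (11 to 87) in those lower. The other library had no read in 411 of the 516 higher regions (79.7%, exact Clopper-Pearson 95% interval 75.9 to 83.0) and in 2415 of the 2990 lower regions (80.8%, 79.3 to 82.2). The lists differed at the deep end. At least 20 reads were found in 120 higher regions (23.3%) and in 262 lower ones (8.76%), and at least 30 reads in 59 and 25. Exactly 11 reads, the fewest that the authors' test passes against 0, were found in 113 higher and 791 lower regions. Summed over regions, the higher list held 11361 reads at 1 dpi and 1178 in MEF, and the lower list 988 at 1 dpi and 42535 in MEF.

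**Figure D1:**
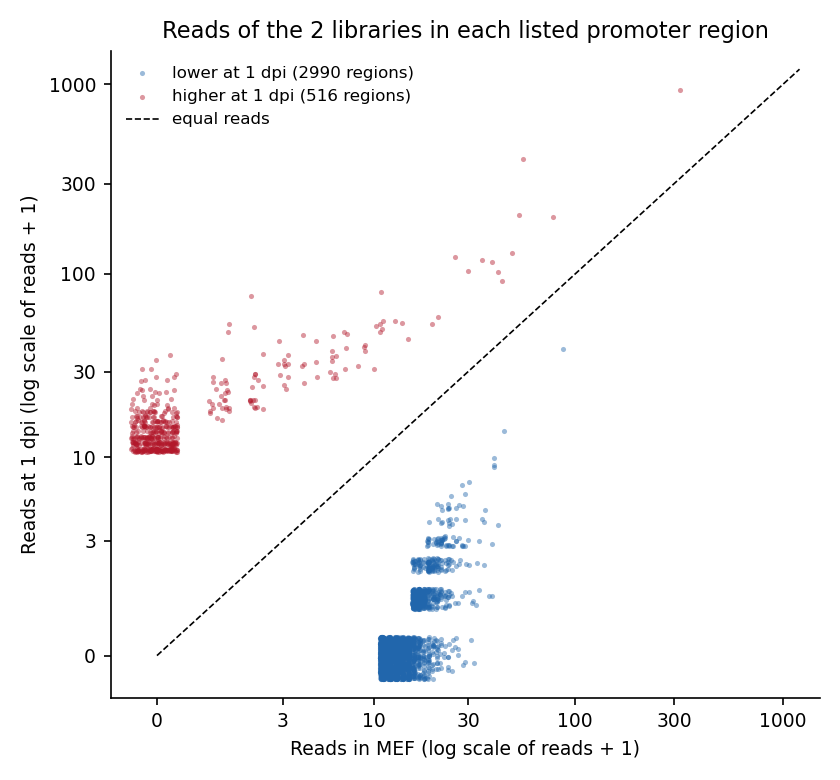
Reads of MEF (horizontal axis) and of the 1 dpi library (vertical axis) in each of the 3506 listed regions, both on a log scale of reads + 1 with a small random shift so that equal values can be seen. Most points lie where the other library had 0 reads, and the deepest regions, up to 930 reads, are among the 516 higher ones.

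Lower regions thus outnumbered higher ones by a larger ratio at 11 reads than at 20 or more, and higher regions were the more numerous at 30 or more. The deposited values at 1 dpi were whole reads with no visible scaling, library totals were not analysed here, and a difference in depth cannot be told apart from a difference in methylation in the direction of the lists. With MEF reads multiplied by 0.8 and the same limit on p, 803 of the 2990 lower regions stayed listed and the lower share went from 85.3% to 60.9%. Of the 516 higher regions, 515 stayed listed.

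Positions around the TSS differed between the directions. The midpoint lay within 500 bp of the TSS in 157 higher regions (30.4%, 26.5 to 34.6) and in 565 lower ones (18.9%, 17.5 to 20.3). The region spanned the TSS in 10.9% (8.30 to 13.9) of the higher and 5.15% (4.39 to 6) of the lower regions. Higher regions lay downstream of the TSS in 65.7% of cases and lower regions in 51.0%, with median positions of +416.5 bp and +56.5 bp. In bins of 250 bp, 11% of the higher regions lay at 250 to 500 bp downstream, the same share in the bin that starts 1500 bp downstream, and the fewest (2.71%) at 500 to 750 bp upstream. These intervals treat regions as independent, although 1 gene holds 14 of the higher regions. With 1 library per group they do not test a difference between the conditions. Genes with a higher region within 500 bp of the TSS were 0.561% of 26219 RefSeq genes, and those with a lower one 2.11%. Depth went with position in the higher list: at least 20 reads were found in 31.2% of the higher regions within 500 bp and in 19.8% of those farther away. In the lower list the shares were 6.73% and 9.24%. Deep higher regions at multi-copy sequences, described below, were counted in these shares and were not set apart. Of these sequences, Sfi1 (+283 bp), Vmn2r29 (+459 bp) and Rn4.5s (+407 bp) have regions in the bin at 250 to 500 bp downstream. Rn4.5s (+568 bp) and Dux (+625 bp) also have regions farther away.

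**Figure D2:**
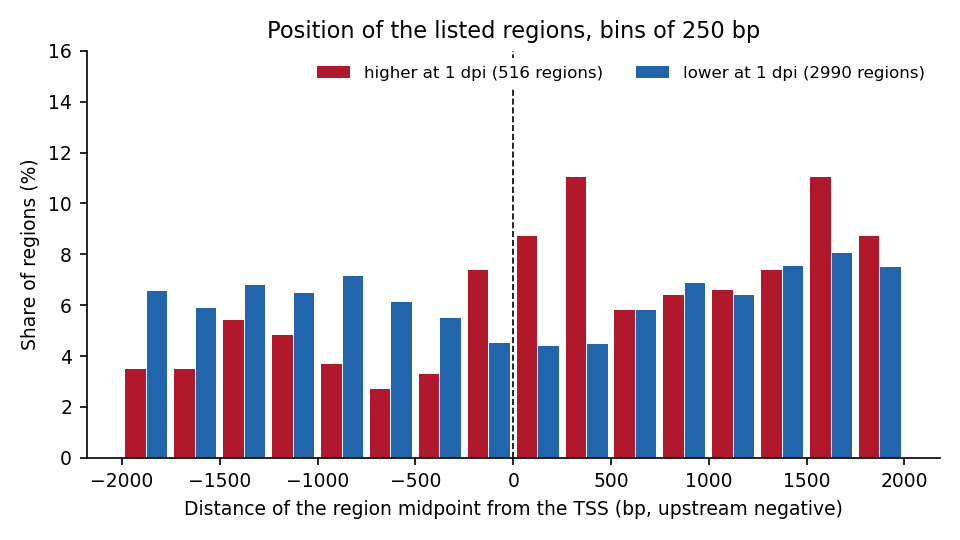
Share of the 516 higher and 2990 lower regions (vertical axis, percent) by distance of the region midpoint from the TSS (horizontal axis, bp, bins of 250 bp, upstream negative). The higher regions peak at 250 to 500 bp and again in the bin from 1500 bp downstream (11% in each), and the lower regions are spread more evenly with fewest near the TSS.

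Genes of meiosis were listed mainly as higher at 1 dpi, and at their start sites. Of 45 genes of meiotic chromosomes and recombination, 10 had a higher region and 2 a lower one. Of all 26219 genes, 1.77% were listed higher and 10.6% lower. The gene lists here and below were chosen with earlier results of these data known. Their shares are therefore descriptions and no test. The synaptonemal complex, which holds paired chromosomes together, had 3 genes listed higher, and Syce2, one of its central element proteins, was listed lower. Sycp2 had 54 reads against 1 in MEF (54-fold, exact 95% counting interval 9.29 to 2172). Sycp1, the transverse filament, had 23 against 1 at +60 bp and a further region of 15 against 0 at +490 bp. Sycp3 had 11 against 0 (at least 3.67-fold, with MEF set to a floor of 3 reads) at +14 bp. In these 3 genes the region closest to the start lay within 168 bp of it.

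The other 7 higher genes of the list have several roles in meiosis. Spo11, the enzyme that makes the DNA breaks of recombination, had 24 reads against 1 (24-fold, 3.91 to 987) at -11 bp. Mei1, required for break formation in mice, had 16 against 0 at +1724 bp, and Rec114, listed in the files as 2410076I21Rik, 11 against 0 at +1419 bp. Hsf2bp, which works in recombination with BRCA2, had 12 against 0 at -262 bp, and Msh4, a crossover protein, 12 against 0 at +178 bp. Hormad1, an axis protein of meiotic chromosomes, had 20 against 0 (at least 6.67-fold) at -226 bp. Brdt, a bromodomain protein of spermatocytes and spermatids, had 20 against 2 (10-fold, 2.43 to 88.2) at -133 bp. Of the 10 higher genes, 8 had the region within 500 bp of the TSS, and Mei1 and Rec114 did not. The lower regions, in Syce2 (0 against 14) and Tex15 (0 against 13), lay at +933 bp and -1103 bp.

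The piRNA pathway uses small RNAs bound to PIWI proteins to silence transposons in the germ line. Of 30 genes of this pathway and of germ cell RNA regulation, 7 (23.3%) had a higher region and 1 (3.33%) a lower one. The shares of all genes were 1.77% and 10.6%. All 7 had the higher region within 500 bp of the TSS. Of all 465 higher genes, 30.3% had their region with most reads there. Piwil1, a PIWI protein, had 14 reads against 0 (at least 4.67-fold) at -125 bp. Its partners in piRNA production were represented by the tudor protein Tdrd12 with 27 against 0 (at least 9-fold), the helicase Mov10l1 with 17 against 1 (17-fold, 2.66 to 710) and the co-chaperone Fkbp6 with 34 against 5 (6.80-fold, 2.65 to 22.3). Among RNA-binding proteins of germ cells, Dazl had 49 against 7 (7-fold, 3.15 to 18.3) at -1 bp and the helicase Ddx4, also called Vasa, 12 against 0 at +70 bp. D1Pas1, a testis helicase, had 76 against 2 at +325 bp. The lower gene was Tdrd6, a tudor protein of the chromatoid body, with 3 against 34 (11.3-fold lower, 3.56 to 57.7) at -1191 bp. In the authors' deposited table the q-values were 9.79e-06 for Dazl, 4.58e-06 for Tdrd12, 0.000138 for Hormad1, 0.00134 for Piwil1 and 0.00265 for Brdt. They rest on read counts of 1 library per group, so they cover counting error only. They do not test a difference between the conditions.

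**Figure D3:**
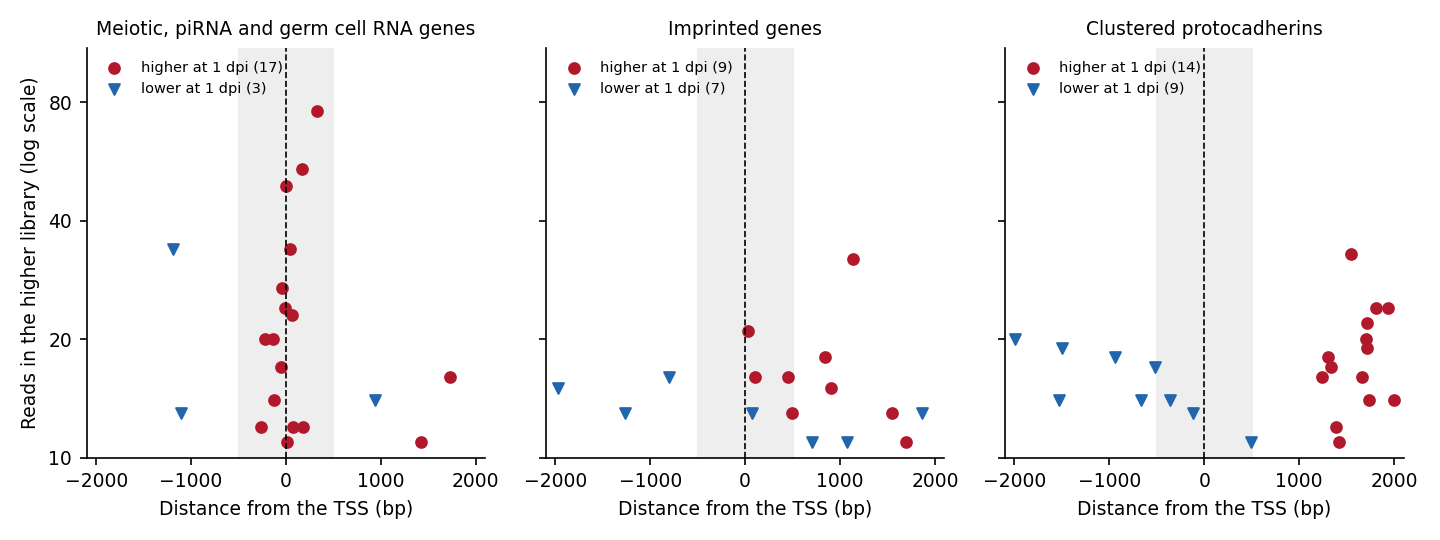
Reads in the library with more reads (vertical axis, log scale) against distance of the listed region from the TSS (horizontal axis, bp) for listed members of the meiotic and piRNA lists, the imprinted genes and the clustered protocadherins, with the span within 500 bp shaded. Of the 17 higher germ cell genes 15 lie in the shaded span, and all 14 higher protocadherins lie beyond 1000 bp downstream.

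The germ cell regions were set beside the other comparisons where a listed region covered at least 50% of them. Not listed means below that no region met this overlap, although the gene may have another listed region, and such a region has no value. The MEF reads change with the limits of the region called in each comparison, and all 5 comparisons share the MEF library, so these are each comparison's own values and not independent repeats. Dazl had 28 reads against 4 at 3 dpi, 81 against 7 at 5 dpi and scaled values of 42.5 against 7.25 in primary neurons. Fkbp6 had 63 against 11 at 3 dpi, 46 against 11 at 5 dpi and scaled values of 30.9 against 5.18 in primary neurons. Both were without a listed region at 7 dpi.

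D1Pas1 had 46 reads against 0 at 5 dpi and a scaled value of 45.03 against 0 at 7 dpi. Brdt had 37 against 6 at 5 dpi and scaled values of 61.2 against 5.2 at 7 dpi. Rec114, as 2410076I21Rik, had 11 against 0 at 5 dpi and scaled values of 20.8 against 1.73 at 7 dpi. These 3 were not listed at 3 dpi or in primary neurons. Sycp2 (49 against 1), Spo11 (33 against 1), Sycp3 (17 against 0), Tdrd12 (17 against 0) and Hormad1 (13 against 0) were matched at 5 dpi and not listed in the other 3 comparisons. Hsf2bp had 24 against 0 at 3 dpi and 20 against 0 at 5 dpi. Mei1 had 14 against 0 at both of these times and scaled values of 27.1 against 3.11 in primary neurons. Mov10l1 had 67 against 18 at 5 dpi and scaled values of 24.1 against 1.04 in primary neurons. Msh4 and Ddx4 were not listed in any of them, and Sycp1 and Piwil1, higher again at 5 dpi with 65 against 8 and 11 against 0, had lower listings at 7 dpi and in primary neurons.

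**Figure D4:**
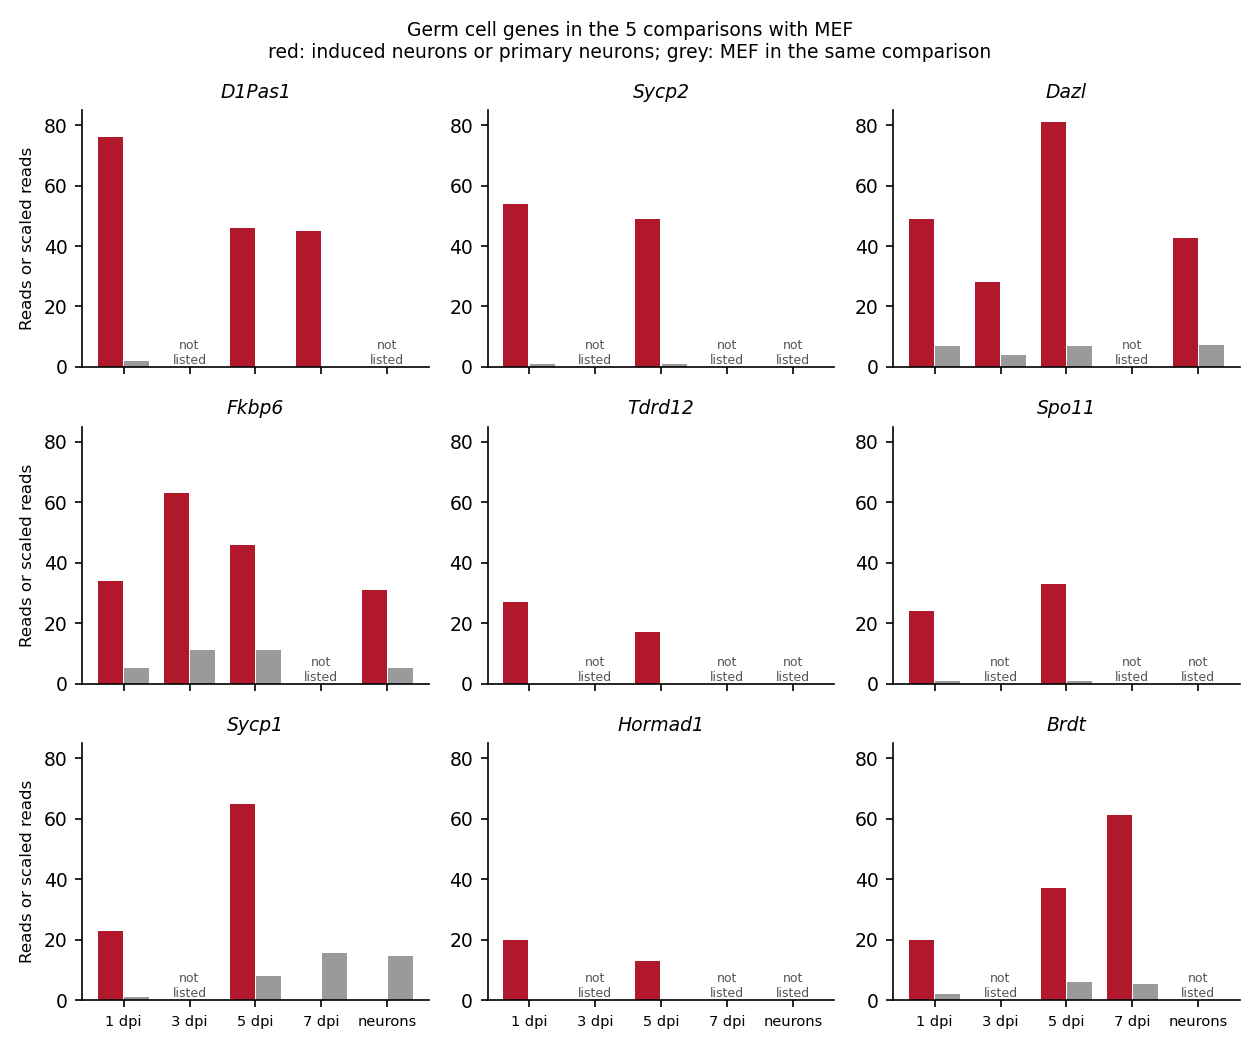
Reads (1, 3 and 5 dpi) or authors' scaled reads (7 dpi and primary neurons) of 9 germ cell genes in the regions listed against MEF (grey), one panel per gene, with not listed where no region covered at least 50% of the 1 dpi region. The bars at 5 dpi run from 13 reads (Hormad1) to 81 (Dazl), against 0 to 11 in MEF.

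Imprinted genes are expressed mainly from a single parental allele, and their control regions carry methylation on a single allele. Of 59 such genes, 9 (15.3%) were listed higher and 7 (11.9%) lower, where the shares of all genes were 1.77% and 10.6%, and 1 of these, Kcnq1ot1, was listed in both directions. With MEF reads multiplied by 0.8, 9 were higher and 1 lower (1.69%, where 2.99% of all genes were then lower). That contrast was largely set by the listing limit. The higher regions had 0 to 3 MEF reads and could not drop out, and the lower ones had 11 to 16. Plagl1, a zinc finger gene, had 21 reads against 2 (10.5-fold, 2.57 to 92.4) at +33 bp. Gnas, the gene of a G protein subunit with several imprinted transcripts, had 18 against 0 (at least 6-fold) at +842 bp. Peg10, a retrotransposon-derived gene, had 16 against 0 at +455 bp and 13 against 0 at +835 bp, while Sgce, a sarcoglycan gene that shares its start region, had 0 against 13 at +1864 bp. Nnat, a neuronal membrane proteolipid gene, had 16 against 0 at +101 bp and the noncoding RNA Airn, which silences its neighbours, 15 against 0 at +900 bp. Impact, Peg13 and Grb10 had 11 to 13 against 0. Kcnq1ot1, a silencing noncoding RNA, had 32 against 3 at +1137 bp and 1 against 16 at -803 bp. The lower genes besides Kcnq1ot1 and Sgce were Peg12, Ddc, Rtl1, Ppp1r9a and Snrpn, each with 0 reads against 11 to 15. In the comparison of 5 dpi with the same MEF library, Plagl1 had 44 against 2, Peg10 39 against 4, Peg13 47 against 5 and Gnas 21 against 0, while Nnat was matched in primary neurons alone, with scaled values of 28.0 against 1.04.

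Clustered protocadherins are cell surface proteins of neurons whose alternative first exons, arranged in tandem on chromosome 18, give each neuron its own combination. Of the 58 genes, 14 (24.1%) were listed higher and 9 (15.5%) lower, with 2 in both directions. The shares of all genes were 1.77% and 10.6%. All 14 higher regions lay from +1241 to +1997 bp, downstream of the start and away from the promoter proper. The alpha cluster held 8 of the 14. Pcdha6 had 33 reads against 3 (11-fold, 3.45 to 56.1), Pcdha3 22 against 0 (at least 7.33-fold) and Pcdha1 18 against 0. Pcdhb7 had 24 against 1, Pcdhb20 20 against 0 and Pcdhgb2 24 against 0 (at least 8-fold). The 9 lower regions ran from -1993 to +490 bp. Pcdhgb6 had 14 against 0 at +1997 bp and 1 against 20 at -1993 bp, and Pcdhb17 19 against 0 at +1710 bp and 0 against 11 at +490 bp. At 5 dpi, against the same MEF library, Pcdha1 had 24 against 0, Pcdhb20 18 against 0 and Pcdhgb2 12 against 0, while Pcdha6 and Pcdhb17 had no region with that overlap in any other comparison. None of the 14 higher regions was matched at 3 dpi. Chromosome 18 had the largest share of genes with a higher region, 27 of 658 (4.10%, where 1.77% of all genes were higher). Of these genes, 15 lay in the 2 megabases that hold the protocadherins. The X chromosome had the smallest share of the chromosomes with any, 5 of 1130 (0.442%), with 11.3% lower. Xist, the RNA of X inactivation, had 5 reads against 24 at +893 bp, and the sex of the embryos is not given in the labels.

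Among lists of neuronal genes, that of neuronal structure and synapse had the largest lower share. Of 61 genes of neuronal structure and synapse, 13 (21.3%) were lower and 0 higher, where 10.6% of all genes were lower. Ncam1, a neural cell adhesion molecule, had 2 reads against 27 at +1169 bp. Ina, the neurofilament alpha-internexin, had 3 against 22 (7.33-fold, 2.20 to 38.3). Rbfox3, the nuclear protein NeuN, the SNARE protein Snap25 and the membrane anchor Ank2 each had 0 against 15 (at least 5-fold). The lower region of Homer1, a postsynaptic scaffold protein, lay at -203 bp. With MEF reads multiplied by 0.8, 6 of the 13 stayed listed (9.84% of the list, where 2.99% of all genes were then lower). Most genes of each neuronal list had no listed region.

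Of 90 genes of neurotransmitter receptors, synthesis and transport, 14 (15.6%) were lower and 0 higher, where 10.6% of all genes were lower. Of the 14, 1 stayed listed with MEF reads multiplied by 0.8 (1.11%, below the 2.99% of all genes). The glutamate receptor subunits were Grid1 (1 against 18), Gria1 (0 against 14), Gria2 (0 against 13) and Grin1 (0 against 12), and the vesicular glutamate transporter Slc17a6 had 0 against 11. On the GABA side, Gad2, which makes GABA, had 2 against 18 and Gabrb1 1 against 17. Voltage-gated channels were listed in both directions, 3 higher (4.55%) and 5 lower (7.58%) of 66, where 1.77% and 10.6% of all genes were. Among the higher ones were the potassium channels Kcnb2 (18 against 0, at +369 bp) and Kcnh6 (12 against 0). Of 73 ligands and receptors of axon guidance, 8 (11%) were lower, close to the share of all genes, and 0 higher, among them the semaphorin Sema6b and the Eph receptor Ephb4 (1 against 18 each).

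Of 75 proneural and neuronal fate factors, 8 (10.7%) were lower and 2 (2.67%) higher, near the share of all genes in each direction. Onecut1 had 1 read against 22, Pax7 1 against 17, Otx2 0 against 15 and Pax6 0 against 11. Dlx6, a homeobox gene of forebrain interneurons, had 12 against 0 at -893 bp, and Neurod6, a factor of cortical neurons, 12 against 0 at +1703 bp. Of 39 HOX genes 6 (15.4%) were lower and 0 higher, where 10.6% and 1.77% of all genes were. Hoxa7 led them with 1 against 17. With MEF reads multiplied by 0.8, 1 of the HOX genes stayed lower (2.56%, below the 2.99% of all genes).

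Of 73 collagen and matrix genes, 6 (8.22%) were lower and 0 higher, and of 43 genes of fibroblast and smooth muscle identity 3 (6.98%) were lower and 0 higher. Both lower shares were below the 10.6% of all genes, and at these list sizes 0 higher genes is near the 1.77% of all genes. Col6a3, a collagen chain, had 1 read against 17 at -89 bp and the proteoglycan Dcn 0 against 15 at -819 bp. Thy1, a surface protein of fibroblasts and of mature neurons, had 0 against 12 at -3 bp, and Pdgfra, a growth factor receptor of mesenchyme, 0 against 11 at +1515 bp. Among markers of other cell types that fibroblast or neuron cultures can hold, 2 of 20 astrocyte, 1 of 20 oligodendrocyte, 2 of 22 microglia and myeloid, 2 of 20 endothelial and 1 of 24 epithelial markers were lower. The higher ones were Cdh5, the endothelial cadherin (19 against 0), and St14 (11 against 0). The deepest regions among the myeloid markers were those of Ptprc, or CD45 (0 against 23), and Itgam (0 against 17). The part that other cell types had in these counts was not tested.

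Lists of signalling genes had lower shares on both sides of the 10.6% of all genes. Of 72 ligands and receptors of the FGF, EGF, PDGF and VEGF families, 12 (16.7%) were lower and 2 higher, and the latter, Fgf22 and the receptor Kit, had a region in each direction. Fgf14 had 0 reads against 19 at +297 bp, and the neurotrophic factors Gdnf and Ntf3 had 1 against 16 each. Of 44 Notch and Hedgehog genes, 7 (15.9%) were lower and 1, Numbl, higher. Ihh, a hedgehog ligand, had 3 against 22. Of 62 Wnt genes 5 (8.06%) were lower and 0 higher, with the co-receptor Lrp6 at 1 against 16. Of 67 TGF-beta and BMP genes 6 (8.96%) were lower and 1, Gdf1, higher, with Gdf10 at 1 against 20. The growth factor list had, with MEF reads multiplied by 0.8, 2 lower genes (2.78%) and the Notch and Hedgehog list 1 (2.27%), where 2.99% of all genes were then lower.

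Genes of the chromatin and methylation machinery had few listed members. Of 34 genes of DNA methylation and demethylation, 2 (5.88%) were higher and 2 lower, where the shares of all genes were 1.77% and 10.6%. Zbtb24 (15 reads against 0 at +1463 bp) and Cdca7 (11 against 0 at -818 bp), both needed for methylation of repeats and mutated in the human ICF syndrome of hypomethylation, were higher. The maintenance enzyme Dnmt1 (0 against 14 at +768 bp) and the demethylating enzyme Tet1 (1 against 17 at -1786 bp) were lower. Of 54 Polycomb and Trithorax genes 2 (3.70%) were lower and 0 higher, namely Cbx6 (0 against 17) and Ezh1 (1 against 16). Of 41 SWI/SNF and remodeller genes 5 (12.2%) were lower and 0 higher, with Smarcd2 at 2 against 24 and Actl6b, the neuronal BAF53B subunit, at 0 against 16. Of 38 histone deacetylase and acetyltransferase genes 4 (10.5%) were lower and 2 higher, with the acetyltransferase Kat5 at 20 against 1. Among 28 pluripotency genes, Nanog was higher (16 against 0 at -1777 bp) and Fbxo15 (0 against 21 at +136 bp) and Dppa2 (1 against 16) were lower.

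Of the remaining lists, several had lower shares around the 10.6% of all genes and no higher gene, which at their size is near the 1.77% of all genes. These were cell cycle genes (6 of 51 lower, 11.8%), housekeeping genes (4 of 33, 12.1%), histone clusters (10 of 102, 9.80%), cytochrome P450 genes (13 of 93, 14.0%) and kinesins (3 of 38, 7.89%). Muscle genes were lower in 6 and higher in 2 of 40 genes, the latter being Myf5 and Myh6. Near Myh6 lie the heart microRNAs Mir208a (29 against 3 at -1288 bp) and Mir208b (4 against 29 at +1746 bp), which were listed in opposite directions. Of 1165 microRNA genes 62 (5.32%) were lower and 15 (1.29%) higher. Olfactory receptors, single-exon genes of the nose arranged in large clusters, had 170 of 1125 members lower (15.1%) and 12 higher (1.07%). The window of 1 megabase with most lower genes held such a cluster, with 13 of 56 genes lower at 103 to 104 megabases of chromosome 7. Vomeronasal receptors had 47 of 353 members lower and zinc finger genes named Zfp in 52 of 395, with 1 and 5 higher. Lower and higher genes were 42 and 7 of 379 solute carriers, 9 and 3 of 110 keratins and keratin-associated proteins, 8 and 2 of 70 defensins, 6 and 1 of 50 genes of glycolysis and the citrate cycle, 5 and 3 of 68 tripartite motif genes, and 4 and 1 of 81 ribosomal protein genes. Slc25a31, a testis ADP/ATP carrier, had 32 reads against 4 at +120 bp, and Pdha2, the testis form of a pyruvate dehydrogenase subunit, 19 against 1.

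**Figure D5:**
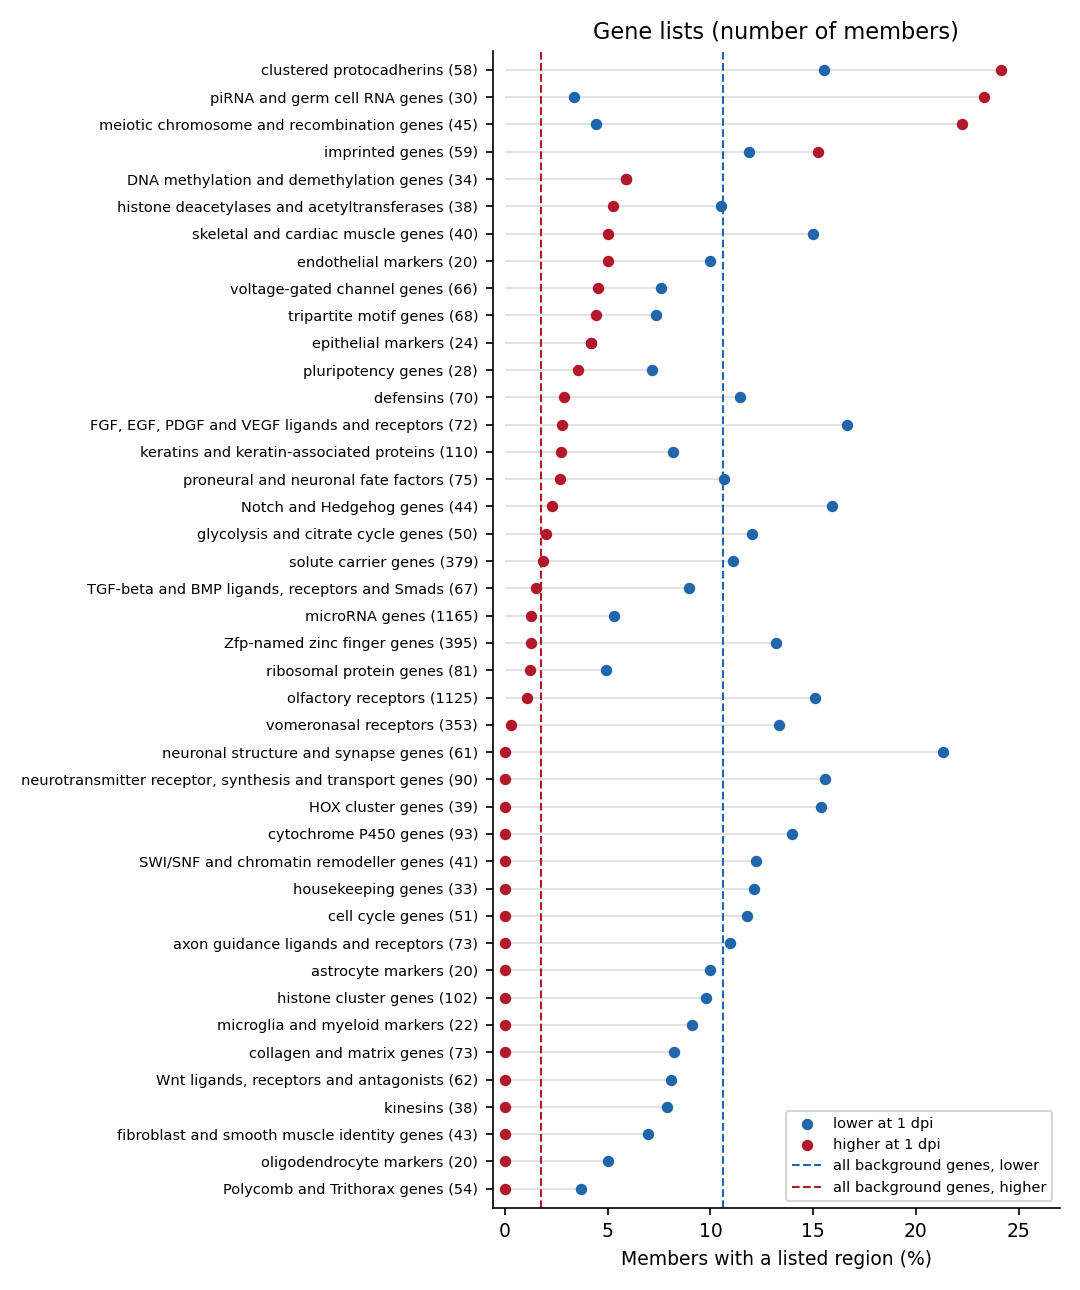
Percent of the members of each of 42 gene lists with a higher (red) or lower (blue) region at 1 dpi, with the number of members in parentheses and dashed lines at the share of all 26219 genes (1.77% and 10.6%). Protocadherins, piRNA, meiotic and imprinted genes are farthest right in red, and genes of neuronal structure in blue. The lists were chosen with earlier results of these data known.

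Many of the deepest regions lay at sequences present in several copies, where reads can be placed wrongly, so their gene names are uncertain. Sfi1 had 930 reads against 321 (2.90-fold, 2.55 to 3.30) at +283 bp and also the deepest lower region, 40 against 87 (2.17-fold lower, 1.48 to 3.25), at -1137 bp. Erdr1 had 405 against 56 (7.23-fold, 5.46 to 9.74) and Asmt, the last enzyme of melatonin synthesis, 200 against 78, both in the region shared by the X and Y chromosomes. Vmn2r29 had 204 against 53 and 123 against 26. Dux, an array of homeobox genes of early embryos, had 3 regions of 116 to 129 reads against 35 to 49 in MEF. Rn4.5s, a small RNA repeat, had 104 against 30, and Snord37, a small nucleolar RNA gene, 80 against 11. The higher regions named in this paragraph have folds of 2.56 to 7.27, with narrower counting intervals than those of the germ cell genes. The deepest lower regions were mostly at single genes far from the TSS, such as Grb2, an adaptor of growth factor receptors, with 4 against 42 at +1927 bp and Zmym1 with 5 against 36 at -778 bp.

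The 61 genes with regions in both directions had them a median of 800 bp apart, and in 21 genes the gap was at most 500 bp. The higher region was the nearer to the TSS in 29 of the 61. Sp110, an immune gene beside a multi-copy array, had 41 reads against 9, 29 against 6 and 13 against 0 in higher regions and 7 against 30 in a lower one. D630029K05Rik had 29 against 2 at +1597 bp and 0 against 14 at -789 bp.

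The authors' peaks, called library by library, come from the same reads and add no independent measurement. Of the 516 higher regions, 72 (14.0%, 11.1 to 17.2) overlapped a peak of the 1 dpi library and 9 (1.74%) a peak of MEF. Of the 2990 lower regions, 0 overlapped a 1 dpi peak (upper limit 0.123%) and 33 (1.10%) a MEF peak. Few of the lower regions therefore stood out as peaks in the library where they were higher. The germ cell genes with a 1 dpi peak were D1Pas1, Dazl, Fkbp6, Hormad1, Sycp2, Sycp1 and Mov10l1, whose peaks had folds of 5.83 to 9.53 in the authors' deposited table. In the same table the peak folds were 7.94 for Pcdha6, 5.65 for Plagl1 and 4.77 for Peg10. Kcnq1ot1 alone among the listed imprinted genes overlapped a MEF peak (6.65-fold), which reached the edge of its higher region.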

How the data were processed

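MeDIP-seq libraries of MEF and of induced neurons at 1 dpi were compared, with the other groups used side by side only. Reads were handled with CASAVA and Bowtie2 2.1.0 on mm10, per the submitters' processing notes. The sources used here name no caller of regions or peaks and no antibody. The authors deposited, for each of 10 promoter lists, regions within 2000 bp of a TSS with the read counts of both libraries (whole at 1, 3 and 5 dpi), or at 7 dpi and in primary neurons a scaled signal. The log2 fold change, p-value and q-value are the authors' own, and the deposited p-values equal a G-test of both counts against an even split. The deposited peak lists give a fold enrichment per peak and a −log10 of its q-value, and only the fold was used. At 1 dpi 98.3% of the regions have a p of at most 0.0001, which takes 11 reads against 0.

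Regions were counted as deposited, with no test added, using Python 3.11.15, numpy 2.4.6, pandas 2.3.3, scipy 1.17.1 and matplotlib 3.10.9. The G-test formula and the fold intervals, and not the counts of regions or genes, were checked on simulated reads. Shares have exact Clopper-Pearson 95% intervals. Folds have exact conditional 95% intervals, or a bound with a floor of 3 reads in that library where it had 0. The background was 26219 RefSeq genes of GRCm38.p6. It held 464 of the 465 higher genes and 2769 of the 2784 lower ones. The members and the 42 gene lists (28 of symbols, 14 of families) were chosen with earlier results of these data known. Dnmt3c was not found. The name pattern of the histone family was corrected after the data were seen. Named were the 15 regions per direction with most reads, up to 4 members per list and direction with most reads, and up to 5 genes with both directions. All members of the 4 lists shown by position, other members given as examples, Nars2, Xist and the genes with peaks were chosen after their values were seen. So were the limits of 500 bp around the TSS and of 50% overlap between comparisons. Alternatives were a stricter p, at least 15 reads, other widths, and MEF reads multiplied by 0.8 or 1.2. Some listed genes are not reported here by name.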

Additional observations from a re-analysis of the deposited data

Results flagged for a closer look

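Among the named regions and the listed germ cell, imprinted and protocadherin genes, 6 had a region higher than MEF at 1 dpi and a listing lower than MEF in another comparison, 8 such listings in all, in a region covering at least 50% of the 1 dpi one. The difference between comparisons was not tested, and MEF is shared. Kpna1, a nuclear import receptor, was the one with the same limits in both, with 102 reads against 42 at 1 dpi and scaled values of 6.93 against 36.4 at 7 dpi. In the others the limits differ, and so do the MEF reads. Sycp1 had 23 against 1 at 1 dpi, 0 against 15.6 at 7 dpi and 0 against 14.5 in primary neurons. Piwil1 had 14 against 0 at 1 dpi, 0 against 20.8 at 7 dpi and 0 against 24.8 in primary neurons. Sspn, of the dystrophin complex, had 59 against 21 at 1 dpi and 1.15 against 18.2 at 7 dpi. Slc22a13 had 14 against 0 at 1 dpi and 0 against 11 at 3 dpi, and Trim44 12 against 0 at 1 dpi and 0 against 12.4 in primary neurons. With an overlap of 1 bp in place of 50%, an alternative added after seeing the data, the number was 21.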

How the results depend on the processing

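Under a p limit of 1e-05 there were 214 higher and 580 lower regions of 189 and 573 genes, the lower share was 73.0%, 159 listed genes belonged to a gene list, and the share within 500 bp of the TSS was 18.3 percentage points larger in higher than in lower regions, against 11.5 as reported. With at least 15 reads the values were 243 and 1014 regions, 208 and 995 genes, 80.7%, 252 genes and 18.5 points. With MEF reads multiplied by 0.8 there were 803 lower regions of 788 genes, a lower share of 60.9% and 268 list genes. This multiplication could remove listed regions, mainly shallow lower ones, and not add any. Without the 614 regions of the most frequent width, 200 bp, the lower share was 86.5%. Within 250 bp, added after seeing the data, the difference was 7.19 points. With MEF reads multiplied by 1.2 all 95 results kept their value within the limits used, although that alternative could remove regions and not add any. Higher meiotic genes numbered 5 to 10, piRNA genes 4 to 7, imprinted genes 5 to 9 and protocadherins 10 to 14 over these 5 alternatives. Lower genes of neuronal structure numbered 5 to 13 and of neurotransmission 0 to 14. The alternatives for CpG content were not run, since that comparison was void. No paired analysis was possible because each group has 1 library, which also leaves no replicate to leave out.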
